A study of Sus scrofa with 15 samples.

Results

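The m6A writers and erasers are the 10 genes whose products place or remove the methyl group of N6-methyladenosine (m6A) in RNA. The 8 writer genes were METTL3, METTL14, METTL16, WTAP, VIRMA, RBM15, RBM15B and ZC3H13, and the 2 eraser genes were FTO and ALKBH5. They were chosen by name, through the symbol paired with each Ensembl pig identifier in a table of read counts for 31908 genes. All 10 had a row in that table, and all 10 passed the filter on low counts that 12774 genes passed.

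The study asked how a challenge with lipopolysaccharide (LPS), the endotoxin of Gram-negative bacteria, alters m6A and gene expression in the liver of piglets. It used 12 male growing piglets of a Duroc x Large White x Landrace cross, 6 in a control (CON) group and 6 in an LPS group. The LPS group received 80 μg/kg of LPS into the peritoneal cavity and the CON group an equal dose of sterile saline, and livers were taken 4 h later. Each group gave 3 input libraries, which are sonicated polyadenylated RNA of whole liver kept aside before the m6A antibody was added, so they measure transcript level and not methylation. Neither the labels nor the methods say that each library came from 1 piglet of its own, and p-values therefore measure the spread between libraries. A whole liver holds many cell types, and in such bulk RNA fewer cells of a type cannot be told apart from less RNA per cell.

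Adenosines carrying m6A lie mostly in a short consensus sequence, often around the stop codon, and proteins that bind them decide how long a messenger RNA lasts and how well it is translated. METTL3 transfers the methyl group from S-adenosylmethionine, METTL14 holds the RNA beside it, and WTAP, VIRMA, RBM15, RBM15B and ZC3H13 form the regulatory part that places this pair on its targets. METTL16 is a separate methyltransferase that acts on a few structured RNAs, and FTO and ALKBH5 are iron-dependent dioxygenases that take the methyl group off again.

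The CON libraries held 5927348 to 10351491 counts each and the LPS libraries 4348478 to 19967417. LPS replicate 2 was closer to the CON libraries than to either other LPS library. Across genes, its log2 CPM (read counts scaled by library size) had a Pearson r of 0.923 to 0.945 with the CON libraries, against 0.852 with LPS replicate 3 and 0.907 with LPS replicate 1. The values without it are given beside the members and the gene lists. Of 12 listed genes known to be induced by LPS, 8 had a row and 7 were tested, CXCL8 being below the filter. The list was chosen with earlier results of these data known, so it is no independent check of the labels. All 7 tested genes had a higher fitted level after LPS. In 3 of them only (LCN2, S100A8 and ITIH4) were all LPS libraries above all CON libraries. LPS replicate 2 was below every CON library for CXCL2 (1.47 CPM against 2.19 to 4.94) and CCL2 (5.24 CPM against 7.12 to 12.6) and inside the CON range for SOCS3 and LBP. The 7 log2 fold changes had a median of 3.38, and LCN2 and S100A8, which encode antimicrobial proteins, rose significantly (edgeR adjusted p = 0.0379 and 0.0371). Without LPS replicate 2, 6 of the 7 were called higher and the median was 3.94, in a fit that called 7.2% of tested genes.

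None of the 10 writers and erasers differed significantly between the LPS and CON input libraries. By other measures and with more samples per group, the study reported higher METTL3, FTO and ALKBH5 mRNA (RT-qPCR) in LPS livers. It also reported higher METTL3 and ALKBH5 protein there (western blot). A gene was called when edgeR's quasi-likelihood test gave a Benjamini-Hochberg adjusted p below 0.05 over all tested genes together with a fold change above 1.5, which 0.0548% of tested genes met (7 genes, all higher in the LPS group). The study's own RNA-seq comparison reported many more changed genes, both raised and lowered, and its text gives no cutoff specific to RNA-seq. At an unadjusted p below 0.05, the count was 0 of 10 members against 12.5% of tested genes. In none of the 10 did all 3 LPS libraries lie on one side of all 3 CON libraries, a pattern found in 16.3% of tested genes. The fitted level was higher in the LPS group for 7 members and lower for METTL14, VIRMA and FTO, and log2 fold changes had a median of 0.48, beside a median of 0.01 and 50.5% higher over all tested genes. An exact two-sided permutation test of 3 against 3 libraries has 20 splits and cannot give less than 0.1, and it gave 0.2 to 1 for the members.

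Levels of different genes were compared as TMM-scaled CPM per kilobase of the gene length in the table. In the CON group, ALKBH5 had the highest level of the 10 at 17.8 ± 5.65 CPM per kilobase (SD, n = 3). ZC3H13 (11.9 ± 1.86), WTAP (10.8 ± 0.653) and RBM15B (9.17 ± 1.70) followed on the same scale. VIRMA (3.52 ± 0.923) and FTO (3.50 ± 0.346) were lower, then METTL3 (2.21 ± 0.515), METTL14 (1.70 ± 0.853), RBM15 (1.47 ± 0.479) and METTL16 (0.888 ± 0.291). The eraser ALKBH5 was thus 20.1-fold above METTL16 per kilobase, and the catalytic pair METTL3 and METTL14 lay in the lower part of the order. The order rests on the table's gene lengths, and the intervals of METTL3, METTL14, VIRMA and FTO in the table reach further than those of RefSeq. A longer gene length gives a lower value per kilobase, and the order with other lengths was not tested.

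Most neighbours in that order could not be separated. Their CON ranges overlapped, except between RBM15B (7.35 to 10.7 CPM per kilobase) and VIRMA (2.85 to 4.57) and between FTO (3.24 to 3.89) and METTL3 (1.62 to 2.55). In the LPS group the 4 highest were again ALKBH5 (28.3 ± 11.5), WTAP (18.8 ± 9.98), ZC3H13 (16.6 ± 4.55) and RBM15B (12.3 ± 4.01), and METTL16 was again lowest (1.22 ± 0.496). The only gap between neighbouring ranges there was that between RBM15B (7.78 to 15.5) and VIRMA (2.29 to 4.84).

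**Figure D1:**
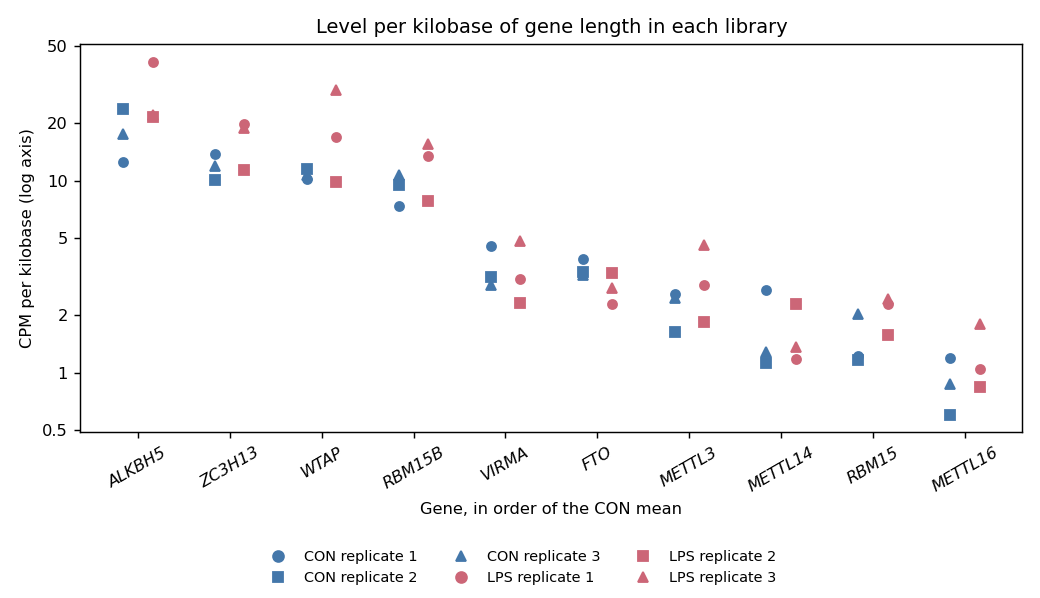
Level of each writer and eraser transcript in CPM per kilobase of gene length (log axis), with 1 point per library, CON in blue and LPS in red, and genes in order of the CON mean. ALKBH5, ZC3H13, WTAP and RBM15B lie above the other 6 genes in the CON libraries, and METTL16 has the lowest mean in both groups.

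The catalytic core was examined before its partners. METTL3 (ENSSSCG00000024445, chromosome 7, 77662058 to 77695948, plus strand) is the methyltransferase itself. It had 17.2, 10.9 and 16.6 CPM in CON replicates 1 to 3 and 19.4, 12.4 and 31.2 CPM in LPS replicates 1 to 3. LPS replicates 1 and 3 were above every CON library, while LPS replicate 2 lay inside the CON range. The means were 14.9 ± 3.48 and 21.0 ± 9.49 CPM (SD, n = 3 each), and the log2 fold change was 0.50 (SE 0.40, 95% interval -0.39 to 1.38, edgeR adjusted p = 0.645). An increase of up to 2.61-fold and a decrease to 0.763 of the CON level were both inside the interval of the fold. Without LPS replicate 2 the log2 fold change was 0.77 (adjusted p = 0.244). It was 0.10 when LPS replicate 3 was left out. METTL3 shares 131 exon bases (1.94% of its own) with the antisense gene ENSSSCG00000029203, which has no symbol and had a log2 fold change of 0.54 (SE 0.38, adjusted p = 0.606).

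METTL14 (ENSSSCG00000009113, chromosome 8, 105015420 to 105053563, minus strand), the RNA-binding partner of METTL3, had 14.8, 6.25 and 7.12 CPM in the CON libraries and 6.54, 12.6 and 7.51 CPM in the LPS libraries. Its highest values were those of CON replicate 1 and LPS replicate 2, and the other 4 libraries were close together across the groups. The means were 9.40 ± 4.73 and 8.88 ± 3.25 CPM, with a log2 fold change of -0.09 (SE 0.45, 95% interval -1.09 to 0.91, adjusted p = 0.956). Counts were low, from 30 reads in LPS replicate 1 to 166 in CON replicate 1, and the sign turned without CON replicate 1, where the log2 fold change was 0.40. The level of METTL3 over that of METTL14, per kilobase and within a library, was 0.954, 1.44 and 1.91 in CON and 2.43, 0.810 and 3.41 in LPS, and these values overlapped between the groups.

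METTL16 (ENSSSCG00000017832, chromosome 12, 48499240 to 48561337, minus strand) methylates the U6 small nuclear RNA and hairpins of the MAT2A transcript, through which it takes part in the control of S-adenosylmethionine supply. It had 6.43, 3.28 and 4.75 CPM in CON and 5.67, 4.58 and 9.69 CPM in LPS. LPS replicate 3 alone exceeded the CON range. The log2 fold change was 0.47 (SE 0.44, 95% interval -0.50 to 1.44, adjusted p = 0.694), and it was 0.09 without LPS replicate 3. The lowest count of any member in any library was that of METTL16 in CON replicate 2, with 21 reads, for which the exact 95% Poisson interval of 13.0 to 32.1 reads covers counting error only.

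**Figure D2:**
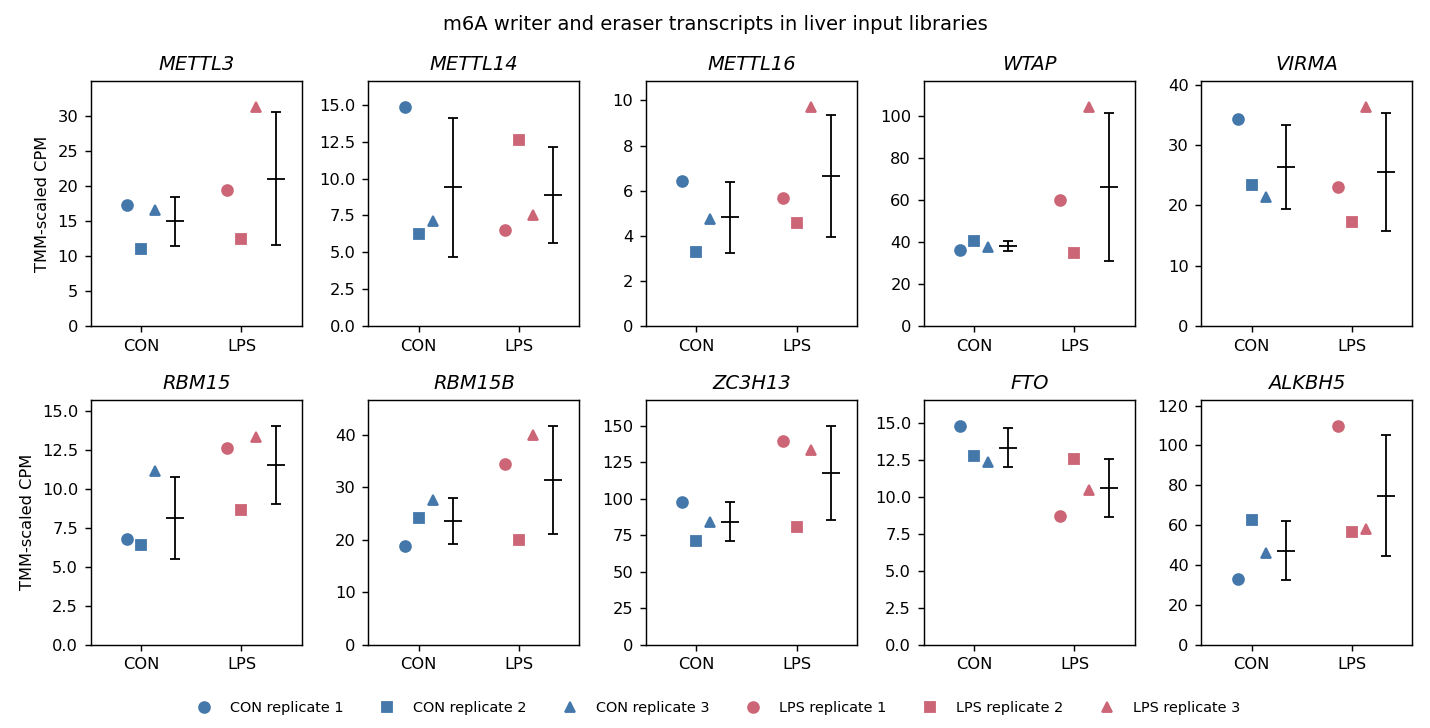
TMM-scaled CPM of each writer and eraser in the 6 input libraries, with 1 panel per gene, CON on the left and LPS on the right of each panel, and bars for the mean ± SD (n = 3 per group). The groups overlap in all 10 panels, and LPS replicate 2 is the lowest LPS library in 8 of them.

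Among the regulatory subunits, WTAP came closest to the threshold. WTAP (ENSSSCG00000004050, chromosome 1, 7622544 to 7651961, minus strand) brings the catalytic pair to nuclear speckles. It had 36.1, 40.6 and 37.6 CPM in CON and 59.7, 34.5 and 104 CPM in LPS. The CON libraries were close together, LPS replicates 1 and 3 were above all of them, and LPS replicate 2 was below all of them. The means were 38.1 ± 2.30 and 66.1 ± 35.2 CPM, and the log2 fold change was 0.80 (SE 0.40, 95% interval -0.09 to 1.69, adjusted p = 0.454).

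The WTAP value turned on LPS replicates 2 and 3. Without LPS replicate 2 the fold change was 2.16 (log2 1.11, SE 0.35, adjusted p = 0.077, not called), and without LPS replicate 3 the log2 fold change was 0.32. DESeq2 was run on the same 5 libraries as an alternative added once the data had been seen. It called WTAP higher (log2 fold change 1.15, DESeq2 adjusted p = 0.0352), beside 11.4% of tested genes called in either direction.

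WTAP also shares 682 exon bases, 19.4% of its own, with SOD2 (ENSSSCG00000040317, chromosome 1, 7651280 to 7691723, plus strand), which lies head to head with it and encodes the mitochondrial superoxide dismutase. SOD2 had 54.2, 82.8 and 94.5 CPM in CON and 959, 343 and 2143 CPM in LPS. Its LPS libraries were all above its CON libraries. LPS replicate 3 was highest and LPS replicate 2 lowest, the order of WTAP and also of METTL3, METTL16, VIRMA, RBM15 and RBM15B. SOD2 had a log2 fold change of 3.90 (SE 0.64, adjusted p = 0.0715), and of 4.34 without LPS replicate 2 (adjusted p = 0.000832). In LPS replicate 3 there were 31389 reads on SOD2 and 1523 on WTAP. The sources used here do not say whether reads of the shared exons were counted by strand, and the part of SOD2 reads in the WTAP count was not tested.

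VIRMA (ENSSSCG00000006100, chromosome 4, 42162431 to 42253172, plus strand) is the large scaffold of the regulatory part and steers methylation towards the end of the coding sequence. It had 34.2, 23.4 and 21.4 CPM in CON and 23.1, 17.2 and 36.3 CPM in LPS. 1 library of each group, CON replicate 1 and LPS replicate 3, held the high values, and the means were 26.3 ± 6.91 and 25.5 ± 9.76 CPM. The log2 fold change was -0.04 (SE 0.37, 95% interval -0.86 to 0.78, adjusted p = 0.98), so that changes from 0.551 to 1.72 of the CON level were inside the interval. Its sign depended on the scaling, and the log2 fold change was 0.18 without LPS replicate 2.

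RBM15 and RBM15B are related RNA-binding proteins that recruit the complex to sites near uridine-rich stretches. RBM15 (ENSSSCG00000006809, chromosome 4, 109769869 to 109786235, minus strand) had 6.79, 6.41 and 11.2 CPM in CON and 12.6, 8.67 and 13.3 CPM in LPS. All 3 LPS libraries were above the CON mean of 8.12 ± 2.65 CPM, but LPS replicate 2 was below CON replicate 3. The log2 fold change was 0.51 (SE 0.37, 95% interval -0.33 to 1.34, adjusted p = 0.618).

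RBM15B (ENSSSCG00000011420, chromosome 13, 33664472 to 33669456, plus strand) had 18.9, 24.2 and 27.5 CPM in CON and 34.5, 19.96 and 39.9 CPM in LPS. LPS replicates 1 and 3 exceeded every CON library and LPS replicate 2 did not. Its log2 fold change was 0.42 (SE 0.35, 95% interval -0.35 to 1.20, adjusted p = 0.657). Per kilobase, RBM15B was above RBM15 within every library, by 5.31-fold to 8.15-fold in CON and by 4.97-fold to 6.46-fold in LPS.

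ZC3H13 (ENSSSCG00000009414, chromosome 11, 21298855 to 21387972, plus strand) is the zinc finger protein that keeps the regulatory part in the nucleus, and it had more CPM than any other member in each of the 6 libraries. It had 97.3, 70.9 and 84.1 CPM in CON and 139, 80.5 and 133 CPM in LPS. LPS replicates 1 and 3 lay above the CON range and LPS replicate 2 inside it. The means were 84.1 ± 13.2 and 118 ± 32.3 CPM and the log2 fold change was 0.48 (SE 0.33, 95% interval -0.25 to 1.21, adjusted p = 0.58).

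The erasers gave fitted values of opposite sign, neither of which passed the test. FTO (ENSSSCG00000035949, chromosome 6, 31174569 to 31564707, minus strand) removes m6A and also the related mark beside the cap of messenger RNA. It had 14.8, 12.8 and 12.4 CPM in CON and 8.72, 12.6 and 10.5 CPM in LPS. No LPS library exceeded the CON mean of 13.3 ± 1.32 CPM, and LPS replicate 2 lay inside the CON range while the other LPS libraries were below it. The log2 fold change was -0.33 (SE 0.32, 95% interval -1.05 to 0.39, adjusted p = 0.717), and the interval of the fold was 0.484 to 1.31. The fitted sign was opposite to the FTO rise that the study reported by RT-qPCR, though the interval covers both directions. FTO had the lowest spread of the members, with a biological coefficient of variation of 0.301 against a median of 0.366 over tested genes.

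ALKBH5 (ENSSSCG00000035120, chromosome 12, 60507662 to 60529534, minus strand) is a nuclear demethylase of messenger RNA. It had 32.9, 62.6 and 45.9 CPM in CON and 110, 56.3 and 58.2 CPM in LPS. LPS replicate 1 was far above the other 5 libraries, and CON replicate 2 was above both remaining LPS libraries. The means were 47.1 ± 14.9 and 74.8 ± 30.4 CPM and the log2 fold change was 0.67 (SE 0.38, 95% interval -0.18 to 1.51, adjusted p = 0.509). Without LPS replicate 1 it was 0.29.

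The ratio of ALKBH5 to FTO, per kilobase and within a library, was chosen for description after the values had been seen. It was 3.20, 7.06 and 5.36 in CON and 18.2, 6.45 and 7.99 in LPS. LPS replicate 1 held the highest ALKBH5 and the lowest FTO of the 6 libraries, CON replicate 1 the lowest ALKBH5 and the highest FTO, and the groups overlapped through CON replicate 2. The ratio of METTL3 to FTO was 0.657, 0.482 and 0.759 in CON and 1.26, 0.557 and 1.68 in LPS, again with LPS replicate 2 inside the CON range.

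**Figure D3:**
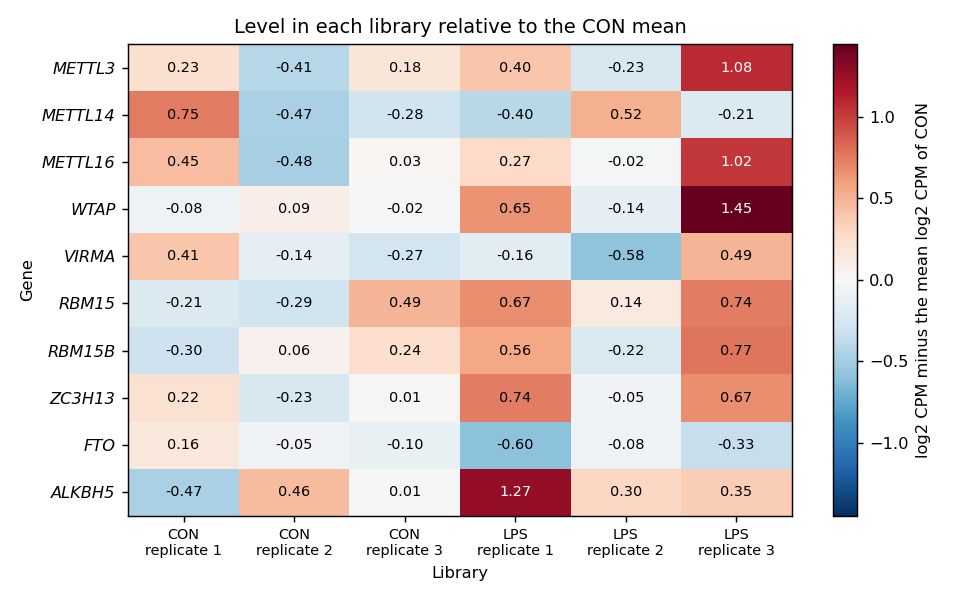
Heat map of log2 CPM of each member in each library minus the mean log2 CPM of the 3 CON libraries, with genes in rows, libraries in columns, and red above and blue below the CON mean. The strongest red cells are WTAP in LPS replicate 3 and ALKBH5 in LPS replicate 1, and the LPS replicate 2 column is mostly pale.

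The place of each LPS library was then counted over the members. LPS replicate 2 was the lowest of the 3 LPS libraries in 8 of 10 members, beside 33.2% of tested genes, and the highest in METTL14 and FTO, which is 2 of 10 beside 36.1%. It lay inside the CON range in 8 of 10 members (50.2% of tested genes), below it in WTAP and VIRMA (26.5%) and above it in none (23.3%). In METTL3, WTAP, RBM15, RBM15B and ZC3H13, LPS replicates 1 and 3 were both above all CON libraries, which is 5 of 10 beside 18.9% of tested genes, and in FTO both were below (22.7%). Summed over the 10 members, CPM was 262 to 280 in CON and 419, 259 and 444 in LPS replicates 1 to 3.

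Without LPS replicate 2, 0 of 10 members were called, against 7.2% of 13632 tested genes (982 genes). The median log2 fold change of the members was then 0.68, beside -0.02 over all tested genes, and 8 members had a higher fitted level. Besides WTAP, the log2 fold change was 0.83 for ALKBH5 (adjusted p = 0.227), 0.70 for ZC3H13 (0.223), 0.69 for METTL16 (0.392), 0.68 for RBM15 (0.342) and 0.67 for RBM15B (0.257). Those of METTL14 and FTO were -0.42 (0.640) and -0.46 (0.493). Only the 95% interval of WTAP, 0.35 to 1.87, lay wholly on one side of 0 in that fit.

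**Figure D4:**
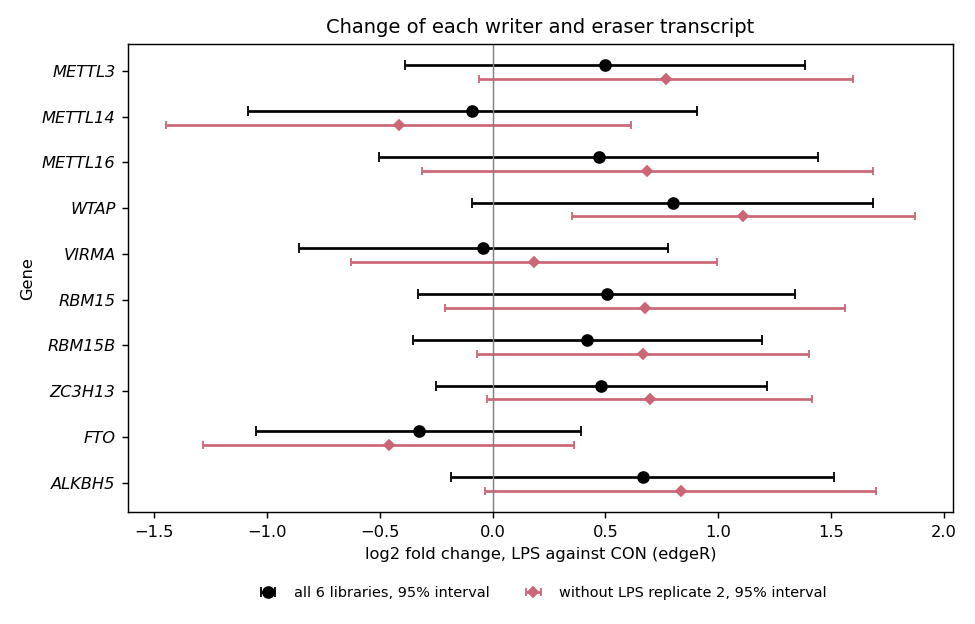
Log2 fold change of the LPS group against the CON group for each member by edgeR, with 95% intervals, from all 6 libraries in black and without LPS replicate 2 in red. All 10 black intervals include 0, and of the red ones only that of WTAP, 0.35 to 1.87, does not.

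Markers of other cell types were set beside these values. The 9 neutrophil markers with a row summed to 18.2 to 31.2 CPM in CON. Their sums were 287, 105 and 445 CPM in LPS replicates 1 to 3, and the members' sum had the same order of these libraries. Of the 7 tested, 6 had a higher fitted level, and ELANE was lower (log2 fold change -0.66, edgeR adjusted p = 0.706). MPO, below the filter, had means of 0.977 CPM in CON and 0.618 CPM in LPS. LCN2 (114, 29.4 and 129 CPM in LPS) and S100A8 are also in the list of LPS-induced genes, so the lists overlap. The 11 Kupffer cell or macrophage markers summed to 2011 to 3261 CPM in CON and 1376 to 2316 CPM in LPS, with 0 of 11 higher. In 3 of the 11 (VSIG4, TIMD4 and MRC1) all LPS libraries were below all CON libraries, beside 16.3% of tested genes with either pattern. By immunofluorescence the study reported more macrophages in LPS livers. Hepatocyte markers, 12 of 12 present, summed to 57720 to 75690 CPM in CON and 51260 to 103500 CPM in LPS, with 6 of 12 higher. In LPS replicates 1 to 3 their sums were 53380, 51260 and 103500 CPM, also in the order of the members' sum. The sums of the remaining marker lists had other orders. FGB alone had 44960 CPM in LPS replicate 3, against 8098 to 12715 CPM in CON (log2 fold change 1.45, edgeR adjusted p = 0.257). All LPS libraries were above all CON libraries in 1 of the 12 (FGB) and below them in 3 (ALB, ASGR1 and G6PC1), beside 16.3% of tested genes. Summed CPM ranges overlapped between the groups for T or NK cell (129.8 to 162 and 66.5 to 146.9), B or plasma cell (22.6 to 99.0 and 17.0 to 39.1), endothelial (233 to 554 and 205 to 347) and cholangiocyte or stellate cell markers (641 to 884 and 513 to 1047), CON and LPS in that order. None of the markers with a row was at 0 in every library. The part of these cells in the members' values was not tested.

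The genes most like METTL3 and FTO over the 6 libraries were named by the Pearson r of log2 CPM, as a description across libraries that share the difference between LPS replicate 2 and the other two. For METTL3 they were ENTPD4 (r = 0.998), RRP15 (0.995) and GNL3L (0.995), and 488 of 10755 genes had r above 0.9. For FTO they were AURKB (0.998), THRB (0.997) and HSPB6 (0.996), and 541 genes had r above 0.9.

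Other enzymes of the same kinds were compared next, from lists written for this purpose. Of 6 further adenosine methyltransferases of RNA and their partners, 3 had a higher and 3 a lower fitted level, 0 were called, and the median log2 fold change was -0.09 (-0.31 without LPS replicate 2, 0 called). TRMT112, the activator of several methyltransferases, had 1.09 (SE 0.69, adjusted p = 0.551) on 5 to 39 reads per library, and METTL4 had -0.75 (SE 0.51, adjusted p = 0.584). CBLL1, a further subunit of the WTAP complex, had 0.18, PCIF1, which methylates the adenosine beside the cap, had 0.14, and the ribosomal RNA methyltransferases METTL5 and ZCCHC4 had -0.33 and -0.38.

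Of the 7 other AlkB family dioxygenases, relatives of FTO and ALKBH5 that act on DNA, transfer RNA or proteins, 2 were higher and 5 lower, 0 were called, and the median log2 fold change was -0.17 (-0.29 without LPS replicate 2, 0 called). ALKBH4 had 0.75 (SE 0.42, adjusted p = 0.499) and ALKBH1 0.31. The mitochondrial ALKBH7 had 19.5, 19.8 and 21.2 CPM in CON and 15.9, 16.4 and 9.01 CPM in LPS. Its groups did not overlap, 1 of 7 beside 16.3% of tested genes, and its log2 fold change of -0.56 did not pass the test (SE 0.34, adjusted p = 0.531). ALKBH6 and ALKBH3 had -0.43 and -0.38.

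The readers are the proteins that bind m6A. Of 14 listed, 13 had a row and 12 were tested, IGF2BP1 being below the filter and HNRNPC without a row. The fitted level was higher for 9 and lower for 3, 0 were called, and the median log2 fold change was 0.13 (0.29 without LPS replicate 2, 0 called). YTHDF1, a cytoplasmic reader linked to translation, had 21.3, 24.8 and 37.6 CPM in CON and 41.0, 29.1 and 53.4 CPM in LPS, overlapping through CON replicate 3 and LPS replicate 2 (log2 fold change 0.56, SE 0.35, adjusted p = 0.546). YTHDF2, which directs transcripts to decay, had 0.36 (SE 0.31, adjusted p = 0.669), and ELAVL1 had 0.25. By RT-qPCR the study reported higher YTHDF1 and YTHDF2 mRNA in LPS livers. In YTHDC2 and IGF2BP3 all LPS libraries lay below all CON libraries, 2 of 12 beside the share of 16.3%, with log2 fold changes of -0.66 (SE 0.45, adjusted p = 0.578) and -0.51 (SE 0.32, adjusted p = 0.547), and FMR1 had -0.23.

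The genes that make and use S-adenosylmethionine, the methyl donor of the writers, had log2 fold changes from -2.38 to 2.55. Of 19 listed, 17 were tested (PEMT and BHMT2 had no row), 8 with a higher and 9 with a lower fitted level and a median log2 fold change of -0.02 (-0.13 without LPS replicate 2). None was called, but 3 higher and 2 lower genes had an unadjusted p below 0.05, beside 12.5% of tested genes. MAT1A, the S-adenosylmethionine synthetase of hepatocytes, had 752, 1173 and 700 CPM in CON and 226, 201 and 78.9 CPM in LPS. All LPS libraries were below all CON libraries, with a log2 fold change of -2.38 (SE 0.45, adjusted p = 0.0982). NNMT, which spends the donor on nicotinamide, had 128, 159 and 383 CPM in CON and 1671, 529 and 1731 CPM in LPS, with no overlap and a log2 fold change of 2.55 (SE 0.57, adjusted p = 0.142).

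Further genes of this list followed both directions. GNMT, the glycine methyltransferase that buffers the donor, and CTH, which makes cysteine from cystathionine, were higher in every LPS library than in any CON library, with log2 fold changes of 1.45 (SE 0.45, adjusted p = 0.246) and 1.57 (SE 0.45, adjusted p = 0.221). MTR, the methionine synthase, had -1.14 (SE 0.41, adjusted p = 0.312). SHMT2 was lower in every LPS library than in any CON library (log2 fold change -0.58, SE 0.30, adjusted p = 0.471). Of the 17 tested genes of this list, 3 had all LPS libraries above all CON libraries and 2 had them below. The share of tested genes with either pattern was 16.3%. BHMT, which remethylates homocysteine with betaine, had 1110, 792 and 792 CPM in CON and 110, 1121 and 120 CPM in LPS, where LPS replicate 2 was above every CON library and the other LPS libraries were far below (log2 fold change -0.997, SE 0.81, adjusted p = 0.653). Without LPS replicate 2, NNMT was called higher (2.93, adjusted p = 0.00652), and MAT1A (-2.52, 0.017), BHMT (-2.96, 0.00274) and MTR (-1.53, 0.0486) were called lower, in a fit that called 7.2% of tested genes.

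MAT2A, the synthetase form of most other tissues and a target of METTL16, had 44.2, 24.4 and 33.7 CPM in CON and 19.8, 19.8 and 63.4 CPM in LPS. Its LPS libraries lay on both sides of the CON range, and the log2 fold change was 0.02 (SE 0.48, adjusted p = 0.994), or 0.30 without LPS replicate 2 (adjusted p = 0.745). HIF1A, the hypoxia-inducible factor subunit linked to MAT2A transcription, had 25.9, 16.9 and 10.6 CPM in CON and 14.8, 10.5 and 34.6 CPM in LPS. In HIF1A too LPS replicate 3 alone was above the CON range, and the log2 fold change was 0.18 (SE 0.50, adjusted p = 0.912), or 0.49 without LPS replicate 2 (adjusted p = 0.562). For MAT2A and HIF1A the study reported higher mRNA by RT-qPCR and higher protein by western blot in LPS livers.

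**Figure D5:**
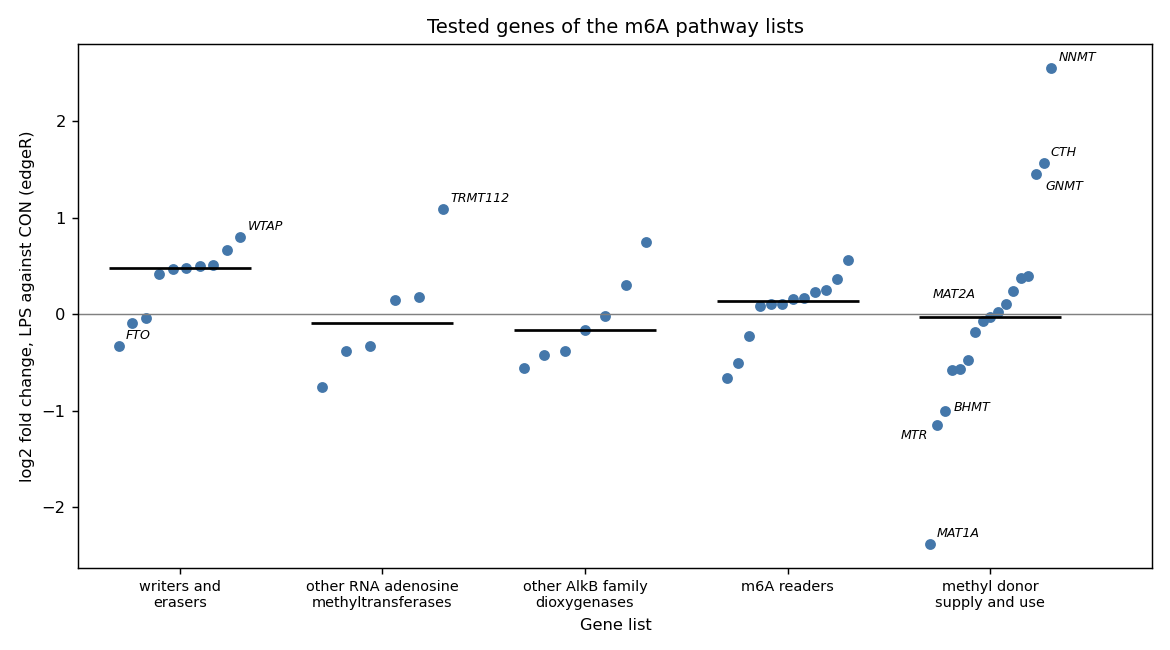
Log2 fold change of the LPS group against the CON group (edgeR) for every tested gene of the writers and erasers and of 4 related lists, with 1 point per gene and a bar at the list median. The members lie between -0.33 (FTO) and 0.80 (WTAP), while the methyl donor genes spread from -2.38 (MAT1A) to 2.55 (NNMT).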

How the data were processed

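A single table of raw counts was deposited, with 1 row per gene and gene length (another column, in bases), exon positions and coordinates. The submitters' processing notes name cutadapt 1.9.3, HISAT2 and the builds galGal6 and hg38, neither of them a pig genome. The pig build, the counting program and its strand setting are not stated in the sources used here, and the library kit was directional. Each member overlapped the RefSeq interval of its symbol in Sscrofa11.1 (10 of 10, of which METTL3, METTL14, VIRMA and FTO extended past it), and 15029 of 31908 identifiers had a symbol. CON replicates 1 and 2 have 2 sequencing entries each and 1 column each, and 0 sample columns were left unmapped. No libraries were repeats of each other. The m6A-IP libraries were not analysed here.

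Counts were tested in R 4.3.3 with edgeR 4.0.16 (filterByExpr, minimum count 10; TMM; robust glmQLFit and glmQLFTest), adjusted over all 12774 tested genes, after the code was tested on simulated data. SE is the log2 fold change over the root of the test statistic. Alternatives used other scalings, filters, DESeq2 1.42.0, limma-voom 3.58.1, a replicate block, thinning, and each library left out. The members, gene lists and marker lists were chosen with earlier results of these data known. Named genes were all members, MAT2A, HIF1A, YTHDF1, YTHDF2, called list genes, up to 3 genes per list and direction with the largest change, and the 3 genes most like METTL3 and FTO. SOD2, the antisense gene of METTL3 and the ratios were added after their values were seen. Some values of single list genes are not reported here.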

Additional observations from a re-analysis of the deposited data

How the results depend on the processing

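Of 160 log2 fold changes of the members under alternatives, 150 kept their sign, 10 turned and 1 was called, with adjusted p from 0.0352 to 0.999. VIRMA turned to 0.0032 with RLE factors, 0.0037 with DESeq2, 0.23 with DESeq2 and 0.20 with limma-voom without LPS replicate 2, and 0.04 to 0.19 in edgeR without CON replicate 1 (0.19), LPS replicate 1 (0.04) or LPS replicate 2 (0.18). Leaving out 1 library gave -0.37 (without LPS replicate 3) to 0.19 for VIRMA and -0.42 (without LPS replicate 2) to 0.40 for METTL14. METTL14 turned to 0.40, 0.09 and 0.05 without CON replicate 1, LPS replicate 1 and LPS replicate 3. The call was WTAP (1.15) by DESeq2 without LPS replicate 2, 1 member, a setting chosen after the data were seen, as was limma-voom without that library, which called 0. Every other alternative called 0 members.

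Genes called over all tested genes, 7 with the settings reported, were 12 with total counts (which moved the median log2 fold change of all genes to -0.12), 885 with no filter on low counts, 0 with at least 10 counts in every library, 404 with DESeq2, 2 with limma-voom and 4 after thinning. They ranged from 0 to 982 with 1 library left out, the highest without LPS replicate 2, and were 0 without each CON library in turn, 1 without LPS replicate 1 and 58 without LPS replicate 3. DESeq2 and limma-voom without LPS replicate 2 called 1549 and 889. The causes were not tested.

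The replicate block gave 51 called genes and 0 members (adjusted p 0.603 to 0.993). Same-numbered libraries deviated together with correlations of -0.239, 0.219 and 0.0289, so the numbers were not treated as pairs, and only CON replicate 2 correlated best with its own number. Counts of 21 to 166 reads per library for METTL16 and METTL14 limit their precision.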
